A study of Mus musculus with 40 samples.

Results

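Collagens are the triple-helical proteins of the extracellular matrix, and the genes of this family were taken as all probe sets whose symbol has the form Col, a number, the letter a and a number. The array held 42 such genes among 16475 probe sets, measured in both the gastrocnemius and the quadriceps. They comprised 11 fibrillar collagens, 8 basement membrane collagens, 5 genes of the microfibrillar collagen VI, 9 fibril-associated collagens, 4 transmembrane collagens and 5 short-chain, anchoring and other collagens. Both muscles of 20 male mice were hybridised singly to 40 arrays of the type Affymetrix Mouse Genome 430 2.0. Of the mice, 10 were fed a low fat diet (LFD) and 10 a high fat diet (HFD) for 8 weeks. From the age of 9 weeks all mice had received the low fat diet as a run-in of 3 weeks, and their age is given as 20 weeks. The strain is written C56BL/6J in the sample labels and C57BL/6J in the study's methods, and the labels name no genetic change or drug. The groups were quadriceps LFD, gastrocnemius LFD, quadriceps HFD and gastrocnemius HFD, with 10 arrays in each. Each mouse contributed both muscles, so the arrays of a mouse share the animal.

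In skeletal muscle the fibrillar collagens I and III form most of the connective tissue around fibers and fascicles, with collagen V built into the same fibrils. Collagen IV forms the network of the basement membrane that surrounds each fiber and each capillary, and collagen VI forms beaded microfibrils close to that membrane. The chains are made mainly by fibroblasts, and basement membrane chains also by endothelial and muscle cells. Because whole muscle was used, fewer cells of a type and less RNA per cell cannot be told apart in the comparisons given here.

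A probe set was tested where its mean signal intensity over all 40 arrays was over 20, and array medians, which lie near background, were 8.8 to 9.4. Of the 42 collagens 15 passed this filter, as did 6479 of all probe sets (39.3%). They were 6 fibrillar genes (Col1a1, Col1a2, Col3a1, Col5a1, Col5a2, Col5a3), 3 basement membrane genes (Col4a1, Col4a2, Col15a1), 3 collagen VI genes (Col6a1, Col6a2, Col6a3), the fibril-associated Col16a1 and Col22a1, and Col7a1 of the anchoring fibrils. No transmembrane collagen passed. The lowest mean inside the filter was 26.3 for Col7a1 and the highest outside it was 12.8 for Col12a1. Of the 27 genes outside, Col8a2 exceeded 20 on 1 array and the others on none. Among those outside were Col2a1, Col9a1 and Col10a1, which are known from cartilage.

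Markers of muscle fibers (6 genes) summed to between 109825.5 and 121712.9 on the 40 arrays, and none was called in any comparison. Markers of cartilage (6 genes) were at most 20 on every array. Markers of neutrophils and marrow (8 genes) summed to at most 48.5 on every gastrocnemius array, but to as much as 2612.8 in the quadriceps LFD group and 13446.6 in the quadriceps HFD group. S100a8, a protein stored in neutrophils, exceeded 100 in the quadriceps of 4 LFD mice and 6 HFD mice and was below 10 in every gastrocnemius. For part of the genes, results on the muscles are therefore also given for the 10 mice without this signal.

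The promoter regions of 4 collagen genes are shown because their RNA levels are set against each other here. Col3a1 was called between the muscles and Col1a2 was not, and Col4a1 and Col4a2 are encoded head to head. RefSeq windows from 250 bases before to 50 bases after the annotated start were searched (build GRCm38.p6), and the 200 bases from 170 before to 30 after it are printed 5′ to 3′ on the strand of the gene. Capitals mark CCAAT or its reverse complement ATTGG, and TATAAA or its reverse complement TTTATA.
Col3a1 (chr1:45311368-45311567, plus strand): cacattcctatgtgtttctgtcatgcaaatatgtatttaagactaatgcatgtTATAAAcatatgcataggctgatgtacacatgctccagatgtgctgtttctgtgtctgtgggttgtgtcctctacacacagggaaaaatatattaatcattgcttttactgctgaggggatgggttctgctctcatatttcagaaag
Col1a2 (chr6:4505448-4505647, plus strand): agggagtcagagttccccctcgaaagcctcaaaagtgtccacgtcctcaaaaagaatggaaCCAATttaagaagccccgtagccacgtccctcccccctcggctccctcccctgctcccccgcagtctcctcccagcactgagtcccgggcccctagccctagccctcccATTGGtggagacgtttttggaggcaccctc
Col4a1 (chr8:11312797-11312996, minus strand): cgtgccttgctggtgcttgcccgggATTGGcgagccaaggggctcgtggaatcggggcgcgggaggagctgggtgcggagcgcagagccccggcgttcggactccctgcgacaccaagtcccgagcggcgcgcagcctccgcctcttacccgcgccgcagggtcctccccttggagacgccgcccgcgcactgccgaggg
Col4a2 (chr8:11312635-11312834, plus strand): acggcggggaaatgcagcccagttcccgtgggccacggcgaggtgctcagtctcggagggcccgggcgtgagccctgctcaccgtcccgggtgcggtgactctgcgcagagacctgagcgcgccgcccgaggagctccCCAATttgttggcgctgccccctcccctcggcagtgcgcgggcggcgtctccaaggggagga
The Col3a1 window held 1 TATAAA and no CCAAT, and the Col1a2 window held 2 CCAAT and no TATAAA, counting both strands. In the printed Col3a1 bases the TATAAA lies nearer to the 5′ end than to the annotated start. Motifs were counted at any distance from the start, and whether any of them acts was not tested. The windows of Col4a1 and Col4a2 each held 1 CCAAT and no TATAAA. Of 32851 mouse promoter windows of this length, 37.4% held CCAAT and 13.6% held TATAAA on either strand. The GC-rich motif GGGCGG (or CCGCCC), present in 35.7% of windows, occurred 2 times in the window of Col1a2, 3 times in that of Col4a2, 1 time in that of Col4a1 and not in that of Col3a1. The annotated starts of Col4a1 (11312826, minus strand) and Col4a2 (11312805, plus strand) lie 21 bases apart on chromosome 8. As annotated, each transcript therefore runs across the start of the other, with no gap between them. The windows of Col4a1 and Col4a2 share 78 bases.

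To find collagens that differ between muscle types, the gastrocnemius was compared with the quadriceps in each diet and over both diets. Col3a1, the single chain of collagen III, was the one collagen that was called, in the HFD mice, where a call needed a false discovery rate (FDR) under 0.05 and a change of more than 1.3-fold. Its signal intensity in the quadriceps of HFD mice was 2303.7 at the lowest, 3044.0 at the median and 3925.8 at the highest, and in the gastrocnemius of these mice 1721.1, 2131.8 and 2983.9. All 10 HFD mice had less Col3a1 in the gastrocnemius than in their own quadriceps, although the ranges of the groups overlapped. The log2 fold change was -0.43 (95% interval -0.66 to -0.21, a 1.351-fold lower level) with an adjusted p of 0.0168 in limma. In this comparison 3.46% of all tested probe sets were called, and 1 of the 15 collagens was.

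In LFD mice, Col3a1 ranged from 2112.4 to 3239.4 in the quadriceps (median 2595.2) and from 1876.5 to 2499.8 in the gastrocnemius (median 2051.2). It was lower in the gastrocnemius of 8 of the 10 mice, with overlapping ranges. The log2 fold change was -0.32 (95% interval -0.48 to -0.16, limma adjusted p = 0.0167), which passed the FDR but not the fold change threshold. No collagen was called in LFD mice, where 2.52% of all tested probe sets were called, and by FDR alone 1 collagen passed beside 5.22% of all. In HFD mice 1 collagen passed by FDR alone beside 6.62% of all.

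Over both diets, 18 of 20 mice had less Col3a1 in the gastrocnemius, with a log2 fold change of -0.38 (95% interval -0.51 to -0.24, limma adjusted p = 6.94e-05). This is a 1.297-fold difference and lies just under the fold change threshold, so that none of the 15 collagens was called over both diets, beside 3.75% of all tested probe sets. By FDR alone Col3a1 and Col5a2 passed, 2 of 15, while 18.0% of all tested probe sets did. With the mouse as a block, a fit that pairs both arrays of a mouse, Col6a3 also passed by FDR alone (limma adjusted p = 0.0494). The share of all tested probe sets passing by FDR alone in the block fit is not given here. No difference between the diets was detected in the muscle difference of Col3a1 (interaction log2 -0.12, 95% interval -0.39 to 0.16, unadjusted limma p = 0.395). In limma without the mouse as a block, 0% of all probe sets passed the interaction test. In that fit 118 had an unadjusted p under 0.05, and none of these was a collagen. With the mouse as a block, only Col5a3 among the collagens was under 0.05 (interaction log2 -0.34, unadjusted limma p = 0.0182). It did not pass (limma adjusted p = 0.9995), and the share of all probe sets under 0.05 in the block fit is not given here.

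**Figure D1:**
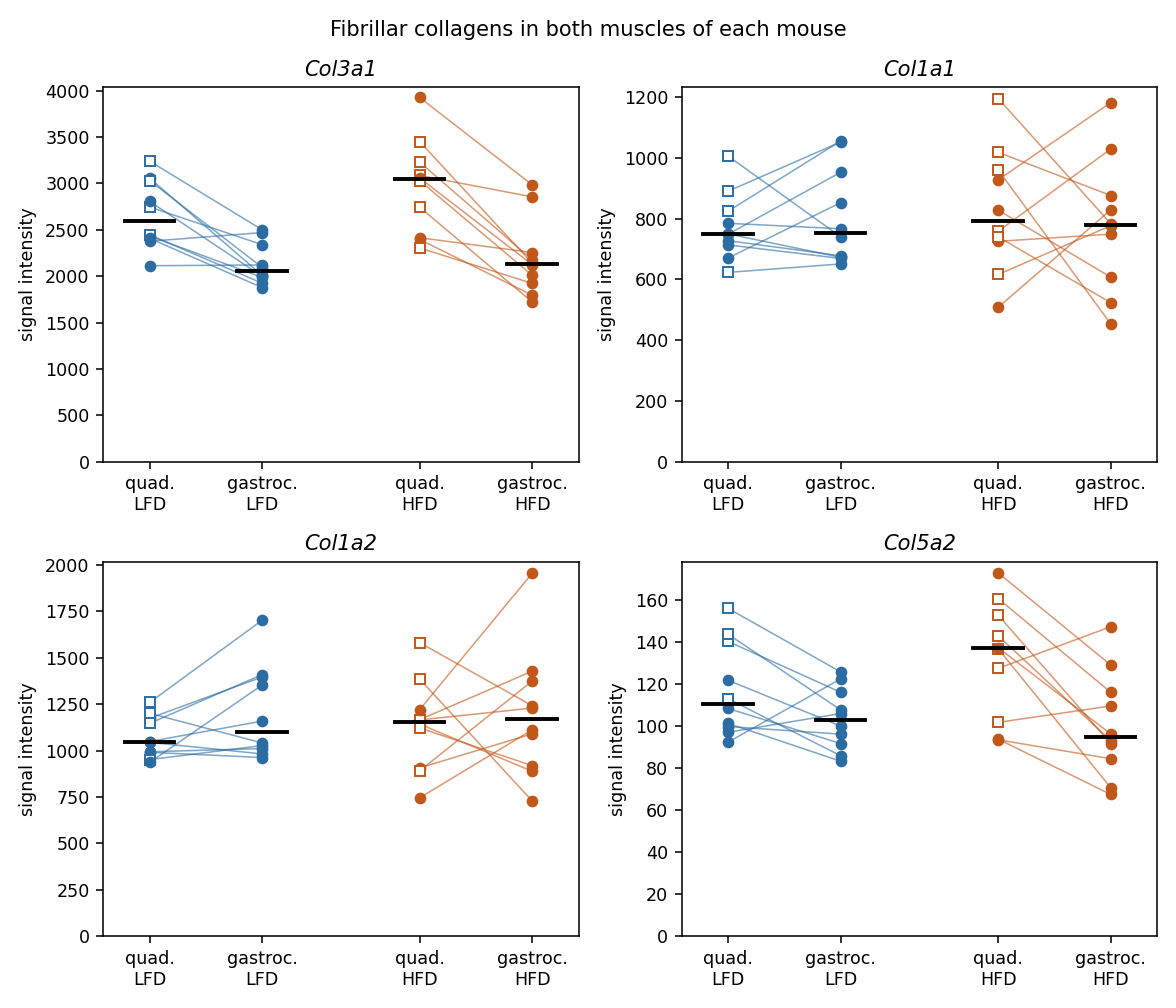
Signal intensity (linear axis from 0) of Col3a1, Col1a1, Col1a2 and Col5a2 in the quadriceps and gastrocnemius of each mouse, joined by a line, with LFD in blue, HFD in orange, group medians as black bars, and quadriceps arrays with S100a8 over 100 as open squares. Col3a1 is lower in the gastrocnemius along 18 of 20 lines, while the lines of Col1a1 and Col1a2 run both ways.

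The S100a8 signal of the quadriceps was set beside Col3a1. In the 10 mice whose quadriceps S100a8 was at most 100, the median log2 difference of Col3a1 was -0.38 and 8 of 10 mice were lower in the gastrocnemius, against a median of -0.39 over all 20. When the test was run on these 10 mice alone, the log2 fold change of Col3a1 was -0.36 in HFD mice (n = 4, limma adjusted p = 0.578), -0.28 in LFD mice (n = 6, limma adjusted p = 0.224) and -0.32 over both diets (limma adjusted p = 0.0753). None of these passed, and 64 genes in all were called in HFD mice instead of 224. The call in HFD mice was also lost without mouse 150 (adjusted p = 0.0513 in limma). In LFD mice the adjusted p in limma rose over the threshold without mouse 142, 155 or 156, to 0.056 at the highest.

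Collagen I, whose chains Col1a1 and Col1a2 join in one trimer, was not called in any comparison. Col1a1 had medians of 749.0 (quadriceps LFD), 753.2 (gastrocnemius LFD), 792.8 (quadriceps HFD) and 779.8 (gastrocnemius HFD), within a range of 453.2 to 1194.8. Col1a2 had medians of 1046.4, 1099.7, 1153.6 and 1170.1 in the same order, within 728.7 to 1954.5. Both chains overlapped widely between the muscles, and mice were split evenly for Col1a1, with 10 higher and 10 lower in the gastrocnemius. Over both diets the log2 fold change between the muscles was -0.02 for Col1a1 (95% interval -0.23 to 0.18, limma adjusted p = 0.919). For Col1a2 it was 0.10 (95% interval -0.09 to 0.29, limma adjusted p = 0.520). A difference of 1.3-fold in either direction lies outside both of these intervals over both diets. In HFD mice alone the 95% interval of Col1a1 was -0.44 to 0.25, which includes a 1.3-fold lower level.

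The step from quadriceps to gastrocnemius was also compared between the chains within each mouse, a comparison chosen after the values were seen and given without a test. The log2 difference of Col3a1 minus that of Col1a2 was below 0 in 19 of 20 mice, with a lowest value of -1.075, a median of -0.47 and a highest value of 0.25. All 10 mice without the S100a8 signal were below 0, with a median of -0.49. The exception was mouse 145, an HFD mouse whose quadriceps had the highest S100a8 intensity, 4031.3. Col1a2 was the 1 fibrillar chain with a log2 fold change above 0 over both diets. Set against Col1a1, the other chain of collagen I, Col3a1 did not have the lower log2 difference in mice 141, 143, 145, 146 and 149. Of these, mice 141 and 143 were without the S100a8 signal.

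Collagen V controls the start and the width of fibrils. Col5a2, which neighbours Col3a1 on chromosome 1, ranged from 92.4 to 156.0 in the quadriceps (median 110.7) and from 83.3 to 125.8 in the gastrocnemius (median 103.0) of LFD mice. In HFD mice it ranged from 93.5 to 172.9 in the quadriceps (median 137.0) and from 67.5 to 147.3 in the gastrocnemius (median 94.7). It was lower in the gastrocnemius of 16 of 20 mice, and the ranges overlapped in both diets. The log2 fold change over both diets was -0.29 (95% interval -0.47 to -0.10, limma adjusted p = 0.0219), which passed the FDR but not the fold change threshold. In HFD mice it was -0.40 (95% interval -0.70 to -0.10, limma adjusted p = 0.108) and in LFD mice -0.17 (limma adjusted p = 0.396). With the mouse as a block, Col5a2 passed both thresholds in HFD mice (limma adjusted p = 0.0427), a fit in which 3.60% of all tested probe sets were called. It also passed in HFD mice when all 4 groups shared one estimate of the spread (limma adjusted p = 0.0407). The share of all tested probe sets called in that fit is not given here, so this call cannot be set against it. Without the mice with the S100a8 signal the value over both diets was -0.22 (limma adjusted p = 0.364).

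The other genes of collagen V were not called. Col5a1 had medians of 186.6 and 160.6 in the quadriceps and gastrocnemius of LFD mice and 203.2 and 162.3 in those of HFD mice, and it was lower in the gastrocnemius of 15 of 20 mice. Its log2 fold change over both diets was -0.19 (95% interval -0.34 to -0.03, limma adjusted p = 0.0955). Col5a3 had medians of 63.2 and 63.4 in LFD mice and 75.9 and 53.8 in HFD mice, and its log2 fold change over both diets was -0.11 (limma adjusted p = 0.470). Of the 6 fibrillar genes, 1 had a value above 0 over both diets, Col1a2, and their median log2 fold change was -0.15 beside -0.01 for all tested probe sets. For all 15 collagens the median was -0.06, with 2 above 0, beside 44.1% above 0 among all tested probe sets. In the 10 mice without the S100a8 signal 8 of the 15 collagens were above 0.

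**Figure D2:**
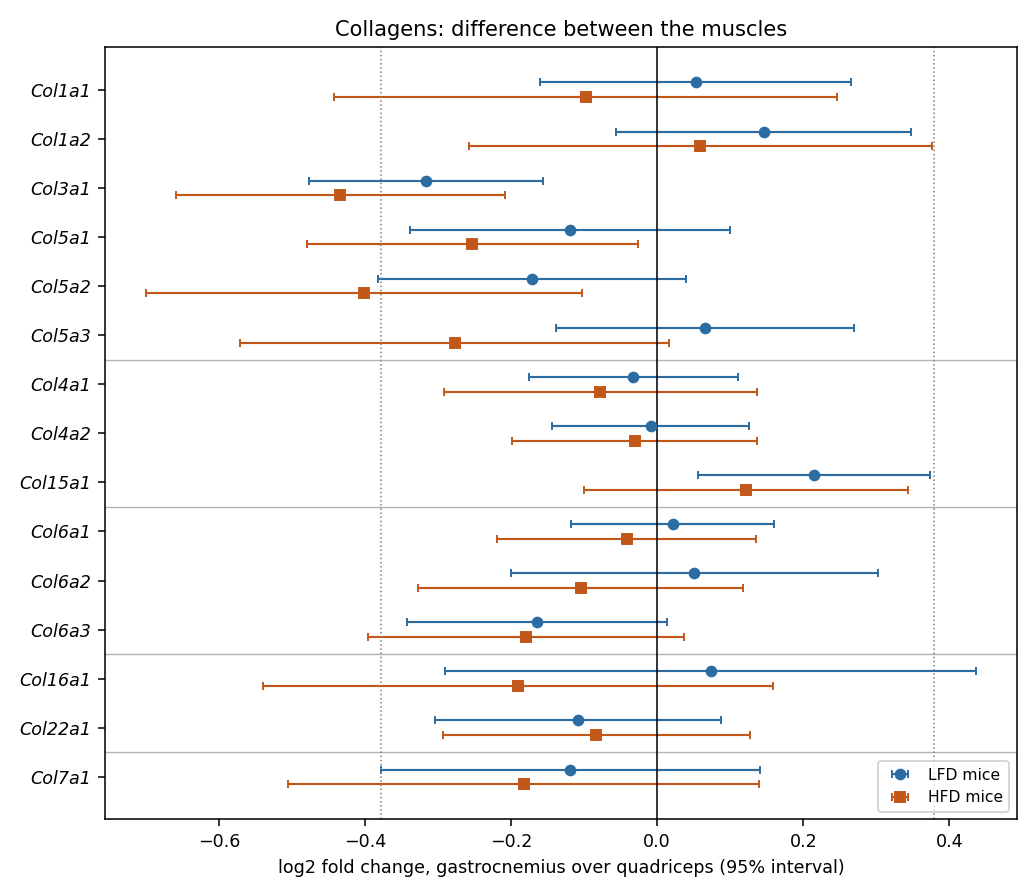
Log2 fold change of the gastrocnemius over the quadriceps for the 15 tested collagens in LFD mice (blue circles) and HFD mice (orange squares), 10 mice each, with 95% intervals. Dotted lines mark the 1.3-fold threshold, grey lines part the classes (fibrillar, basement membrane, collagen VI, fibril-associated, anchoring), and the intervals of Col3a1 lie below 0 in both diets.

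The basement membrane collagens were not called between the muscles. Col4a1, with Col4a2 the chain pair found in nearly all basement membranes, had medians of 856.6 in quadriceps LFD, 865.8 in gastrocnemius LFD, 1024.9 in quadriceps HFD and 896.8 in gastrocnemius HFD. Col4a2 had medians of 357.8, 350.0, 411.0 and 398.2 in the same order. The ranges of the muscles overlapped for both chains. Over both diets the log2 fold change between the muscles was -0.06 for Col4a1 (95% interval -0.18 to 0.07, limma adjusted p = 0.628) and -0.02 for Col4a2 (95% interval -0.12 to 0.09, limma adjusted p = 0.848), so that a difference of 1.3-fold lies outside both intervals.

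Col15a1, a proteoglycan collagen of the basement membrane zone, was higher in gastrocnemius than quadriceps in 15 of 20 mice. Its medians were 60.6 and 70.1 in the quadriceps and gastrocnemius of LFD mice and 69.1 and 81.7 in those of HFD mice, with overlapping ranges. Its log2 fold change over both diets was 0.17 and was not called (95% interval 0.03 to 0.30, limma adjusted p = 0.0754).

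Collagen VI, whose loss causes muscular dystrophy, gave no call. Col6a1 had medians of 636.2 and 630.6 in the quadriceps and gastrocnemius of LFD mice and 691.2 and 661.9 in those of HFD mice. Col6a2, its neighbour on chromosome 10, had medians of 136.7 and 136.2 in LFD mice and 157.7 and 136.3 in HFD mice. The log2 fold change over both diets was -0.01 for Col6a1 (95% interval -0.12 to 0.10, limma adjusted p = 0.930) and -0.03 for Col6a2 (95% interval -0.20 to 0.14, limma adjusted p = 0.873). Col6a3, the long chain of the trimer, had medians of 389.4 and 355.4 in LFD mice and 441.4 and 375.5 in HFD mice. Its log2 fold change was -0.17 (95% interval -0.31 to -0.03, limma adjusted p = 0.0787), with 12 of 20 mice lower in the gastrocnemius. With the mouse as a block it passed the FDR (limma adjusted p = 0.0494) but not the fold change threshold.

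The 3 remaining genes lay near the filter. Col22a1, a collagen of the muscle-tendon junction, ranged from 23.0 to 44.0 over all arrays and had a log2 fold change of -0.10 over both diets (limma adjusted p = 0.399). Col16a1 was over 20 on 33 of 40 arrays and showed -0.06 (limma adjusted p = 0.813). Col7a1 was over 20 on 29 of 40 arrays and showed -0.15 (limma adjusted p = 0.358).

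When no filter on intensity was applied, 2 of the 27 low genes were called in all 3 muscle comparisons. Col9a1, a fibril-associated collagen, was higher in the gastrocnemius (limma adjusted p = 2.19e-10 over both diets), with medians of 5.0 and 8.4 in the quadriceps and gastrocnemius of LFD mice. Col24a1, a minor fibrillar collagen, was lower (limma adjusted p = 0.000186 over both diets), with medians of 7.8 and 5.6. The shares called among all 16475 probe sets were then 1.38% in LFD mice, 1.87% in HFD mice and 2.28% over both diets. The highest array was 9.3 for Col9a1 and 14.3 for Col24a1, near the array medians, so that no size of the difference is given.

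To find out whether genes that act on collagens differed as well, 6 lists of genes that fold, cut, bind, break down or sense collagen or regulate it were examined in the same fits. Prolyl 4-hydroxylase hydroxylates prolines and so makes the triple helix stable, and both of its tested catalytic subunits were lower in the gastrocnemius. P4ha2 ranged from 118.9 to 202.6 in the quadriceps (median 172.4) and from 116.4 to 178.8 in the gastrocnemius (median 130.0) of LFD mice. In HFD mice it ranged from 155.2 to 245.2 in the quadriceps (median 191.5) and from 88.4 to 176.2 in the gastrocnemius (median 149.0). It was lower in the gastrocnemius of 19 of 20 mice, although the ranges overlapped. The log2 fold change of P4ha2 was -0.40 over both diets (limma adjusted p = 0.000134) and -0.49 in HFD mice (limma adjusted p = 0.00792). In the 10 mice without the S100a8 signal it was called over both diets (log2 -0.54, limma adjusted p = 0.00403) but not in HFD mice (log2 -0.78, limma adjusted p = 0.0996).

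P4ha1 had medians of 117.4 and 92.1 in the quadriceps and gastrocnemius of LFD mice and 131.0 and 95.4 in those of HFD mice. It was lower in 17 of 20 mice (log2 -0.39, limma adjusted p = 0.00192) and in all 10 HFD mice (log2 -0.44, limma adjusted p = 0.018). Pcolce2, an enhancer of the protease that removes the C-propeptide, had medians of 57.1 and 46.0 in LFD mice and 56.6 and 42.5 in HFD mice. It was lower in 18 of 20 mice (log2 -0.39, limma adjusted p = 0.00681). In the mice without the S100a8 signal the log2 values over both diets were -0.46 for P4ha1 and -0.39 for Pcolce2, and neither passed (limma adjusted p = 0.0715 and 0.121).

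Of the 28 genes listed for folding and processing 24 were on the array and 14 were tested. Over both diets 3 were called lower and none higher, beside 3.75% of all tested probe sets in either direction. In HFD mice 2 were called lower, and in LFD mice none was called. With the mouse as a block, Pcolce2 was called lower in LFD mice (log2 -0.43, limma adjusted p = 0.0173), a fit in which 3.38% of all tested probe sets were called. The median log2 fold change of the 14 genes over both diets was -0.14, beside -0.01 for all tested probe sets. By FDR alone 6 were lower and 1 was higher over both diets, beside 18.0% of all tested probe sets. Among the 6 was Serpinh1, the collagen chaperone HSP47 of the endoplasmic reticulum, at a log2 fold change of -0.30 with 19 of 20 mice lower (limma adjusted p = 0.00203). Another was Lox, the lysyl oxidase that cross-links fibrils, at -0.36 with 18 of 20 mice lower (limma adjusted p = 0.000791). Without the mice with the S100a8 signal Serpinh1 and Lox still passed the FDR over both diets (limma adjusted p = 0.0499 and 0.0217). The one that was higher was P4hb, the other subunit of prolyl 4-hydroxylase and also a general disulfide isomerase, at 0.14 (limma adjusted p = 0.00459).

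Of 14 tested fibril partners 1 was called higher and 1 lower over both diets, beside 3.75% of all tested probe sets in either direction. By FDR alone 2 were higher and 5 lower, beside 18.0% of all, and the median log2 fold change of the 14 genes was -0.14 with 4 above 0. Postn, a matricellular protein of collagen-rich tissue, had medians of 74.4 and 113.7 in the quadriceps and gastrocnemius of LFD mice and 116.8 and 142.8 in those of HFD mice. It was higher in gastrocnemius than quadriceps in 18 of 20 mice (log2 0.62, limma adjusted p = 0.0022). With the mouse as a block, Postn was also called in LFD mice and in HFD mice (limma adjusted p = 0.0175 and 0.0459). Kera, a small leucine-rich proteoglycan, had medians of 102.4 and 80.4 in LFD mice and 101.5 and 63.8 in HFD mice, and was lower in 16 of 20 mice (log2 -0.56, limma adjusted p = 0.00854). Dpt, which binds fibrils and decorin, was called lower in HFD mice, where its medians were 910.6 and 678.2 (log2 -0.41, limma adjusted p = 0.0132). Without the mice with the S100a8 signal Dpt showed -0.43 in HFD mice and did not pass (limma adjusted p = 0.339). Over both diets Dpt showed -0.32 in these mice, which passed the FDR (limma adjusted p = 0.027) but not the fold change threshold. Lum, a proteoglycan of fibrils, was lower in all 20 mice (log2 -0.34, limma adjusted p = 0.000134) but under the fold change threshold. Without the mice with the S100a8 signal Lum showed -0.28 over both diets and did not pass the FDR (limma adjusted p = 0.0902).

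**Figure D3:**
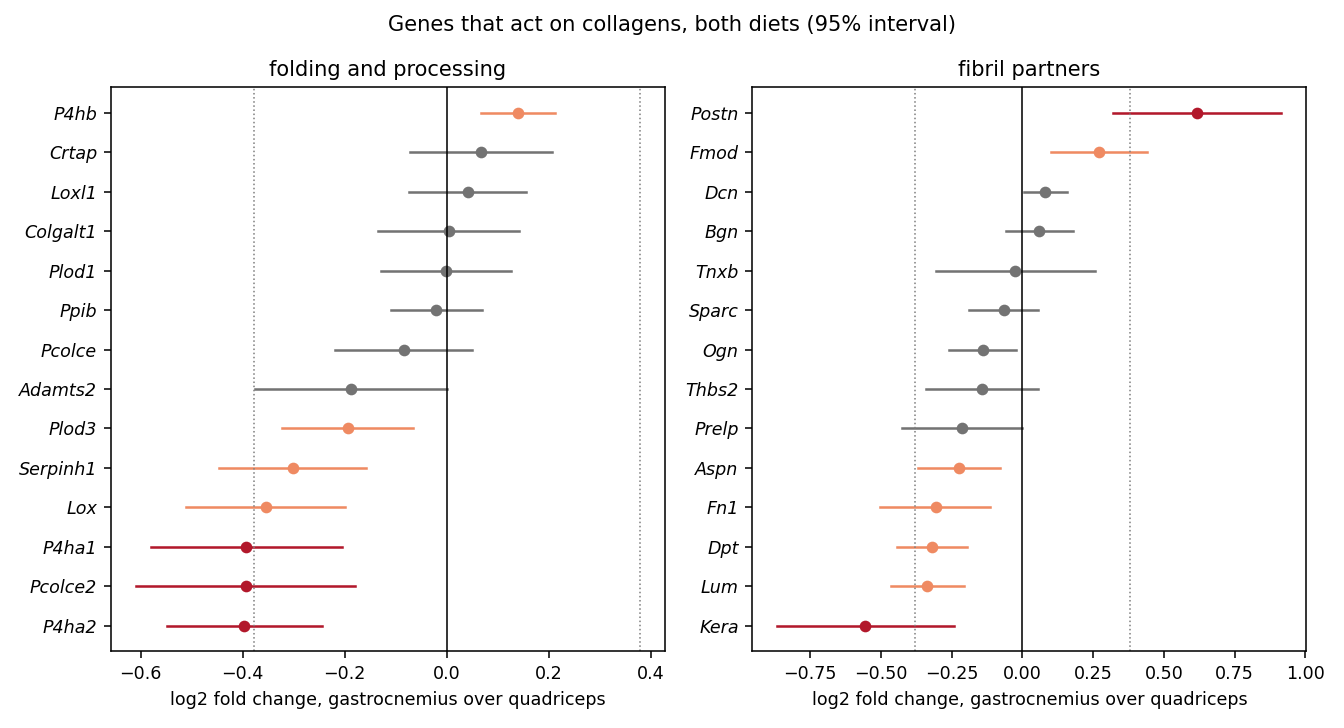
Log2 fold change of the gastrocnemius over the quadriceps over both diets (20 mice) with 95% intervals, for tested genes of collagen folding and processing (left) and for fibril partners (right), in dark red where fold change and FDR passed, light red where FDR alone passed and grey where neither did, with dotted lines at 1.3-fold. On the left 3 genes are dark red and lie below 0, and on the right Postn and Kera lie on opposite sides.

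Partners of the basement membrane (8 tested), collagen breakdown (5 tested) and collagen receptors (3 tested) gave no call in any comparison. By FDR alone 1 of the 5 breakdown genes was lower in LFD mice, in HFD mice and over both diets. The shares of all tested probe sets were then 5.22%, 6.62% and 18.0%. Of the 8 basement membrane partners 1 was higher in HFD mice by FDR alone, and over both diets 1 was higher and 1 lower. No receptor passed by FDR alone. In the TGF-beta pathway, which drives collagen genes in fibroblasts, 1 of 12 tested genes was called over both diets, beside 3.75% of all tested probe sets. This was Ccn2, connective tissue growth factor, with medians of 144.9 and 221.2 in the quadriceps and gastrocnemius of LFD mice and 152.1 and 213.8 in those of HFD mice. It was higher in gastrocnemius than quadriceps in 18 of 20 mice over both diets (log2 0.63, limma adjusted p = 0.0139). With the mouse as a block, Ccn2 was also called in LFD mice and in HFD mice (limma adjusted p = 0.018 and 0.00771). By FDR alone 4 of the 12 pathway genes were higher and 0 lower over both diets, beside 18.0% of all tested probe sets. Their median log2 fold change was 0.09, with 9 above 0.

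Markers of other cells that differed between the muscles are given beside these results. Summed fibroblast markers (9 genes) ranged over 8920.5 to 10493.3 in quadriceps LFD, 8563.8 to 10401.6 in gastrocnemius LFD, 8763.8 to 11103.7 in quadriceps HFD and 8871.9 to 10846.1 in gastrocnemius HFD, and 1 of the 9 was called, Dpt in HFD mice. Gsn alone had medians of 7349.4, 6954.2, 7206 and 6959.1 in the same order, so these sums mainly reflect Gsn. The 9 fibroblast markers were Pdgfra, Dpt, Cd34, Ly6a, Gsn, Mfap5, Pi16, Clec3b and Tcf4. Over both diets 4 of the 9 had a log2 fold change above 0, and the median of the 9 was -0.01. Tcf4, which was among those above 0, is here the gene of that symbol and not Tcf7l2. Tendon markers (8 genes, with Mkx at most 20 on every array) ranged over 2417.2 to 3105.1, 2817.1 to 4170.4, 2047.5 to 3836.7 and 2843.6 to 4276.2 in the same order. Over both diets 2 of the 7 tested tendon markers were called higher (Thbs4 and Scx) and 1 lower (Kera). The 3 tested Schwann cell markers were all called higher over both diets, with a median log2 fold change of 1.27.

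Adipocyte markers (6 genes) had median sums of 1651.4 and 1190.8 in the quadriceps and gastrocnemius of LFD mice (ranges 1439.0 to 3094.6 and 646.2 to 1871.6). In HFD mice the median sums were 2284.0 and 1124.4 (ranges 1010.2 to 3939.5 and 478.7 to 3487.1), and 5 of the 6 were called lower over both diets. All 6 tested markers of neutrophils and marrow were called lower over both diets, while endothelial and macrophage markers gave no call. Markers of osteoblasts and bone (6 genes, 4 at most 20 on every array) had median sums of 136.8 and 68.1 in the quadriceps and gastrocnemius of HFD mice (ranges 39.2 to 346.1 and 47.9 to 103.3). In LFD mice these median sums were 50.1 and 67.8 (ranges 43.4 to 224.5 and 44.7 to 96.1). The 2 tested bone markers gave no call. The part of these cells in the differences of Col3a1, Col5a2 and the processing genes was not tested.

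To find out whether collagens differed with the high fat diet, HFD was compared with LFD in each muscle. No collagen was called in the quadriceps, where 0.0617% of all tested probe sets were called (4 genes), or in the gastrocnemius, where 0.216% were called (14 genes). An unadjusted p under 0.05 in limma was reached by 4 of 15 collagens in the quadriceps, beside 5.68% of all probe sets, and by 2 of 15 in the gastrocnemius, beside 8.97%. Averaging both muscles of a mouse, an addition made after the data were seen, also gave 0 called collagens, with 4 of 15 at an unadjusted p under 0.05 beside 9.37% of all probe sets, and 7 called genes among 6479.

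In both muscles Col4a2, a basement membrane chain, had the highest value among the collagens. It ranged from 301.6 to 401.4 in quadriceps LFD and from 344.4 to 522.7 in quadriceps HFD, a log2 fold change of 0.24 (95% interval 0.09 to 0.39, limma adjusted p = 0.302). In the gastrocnemius the ranges were 296.3 to 443.3 and 347.7 to 505.5, a log2 fold change of 0.22 (95% interval 0.07 to 0.37, limma adjusted p = 0.216). The groups overlapped in both muscles. As the mean of both muscles the log2 value was 0.23 (limma adjusted p = 0.0881). Col4a1 showed 0.20 in the quadriceps and 0.15 in the gastrocnemius (limma adjusted p = 0.849 and 0.685), and Col15a1 showed 0.23 and 0.13 (limma adjusted p = 0.739 and 0.777).

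Col7a1 was the collagen with the value farthest below 0. Its median was 32.1 in quadriceps LFD against 20.8 in quadriceps HFD (log2 -0.38, limma adjusted p = 0.679) and 31.0 against 20.0 in the gastrocnemius (log2 -0.44, limma adjusted p = 0.216). It was over 20 on 10 quadriceps and 9 gastrocnemius arrays of LFD mice and on 5 and 5 arrays of HFD mice, with overlapping ranges in both muscles. None of these values passed the test.

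In the quadriceps 14 of the 15 collagens had a value above 0, with a median log2 fold change of 0.15 for HFD over LFD, whereas 44.5% of all tested probe sets were above 0. In the gastrocnemius 8 of 15 were above 0, with a median of 0.02, beside 42.8% of all. The genes were measured on the same arrays and vary together, so these counts are not independent. In the 10 mice without the S100a8 signal, 12 of 15 were above 0 in each muscle. Of 14 tested folding and processing genes 13 were above 0 in the quadriceps and 10 in the gastrocnemius. Of 14 fibril partners these numbers were 13 and 12, and no gene of the 6 lists was called.

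**Figure D4:**
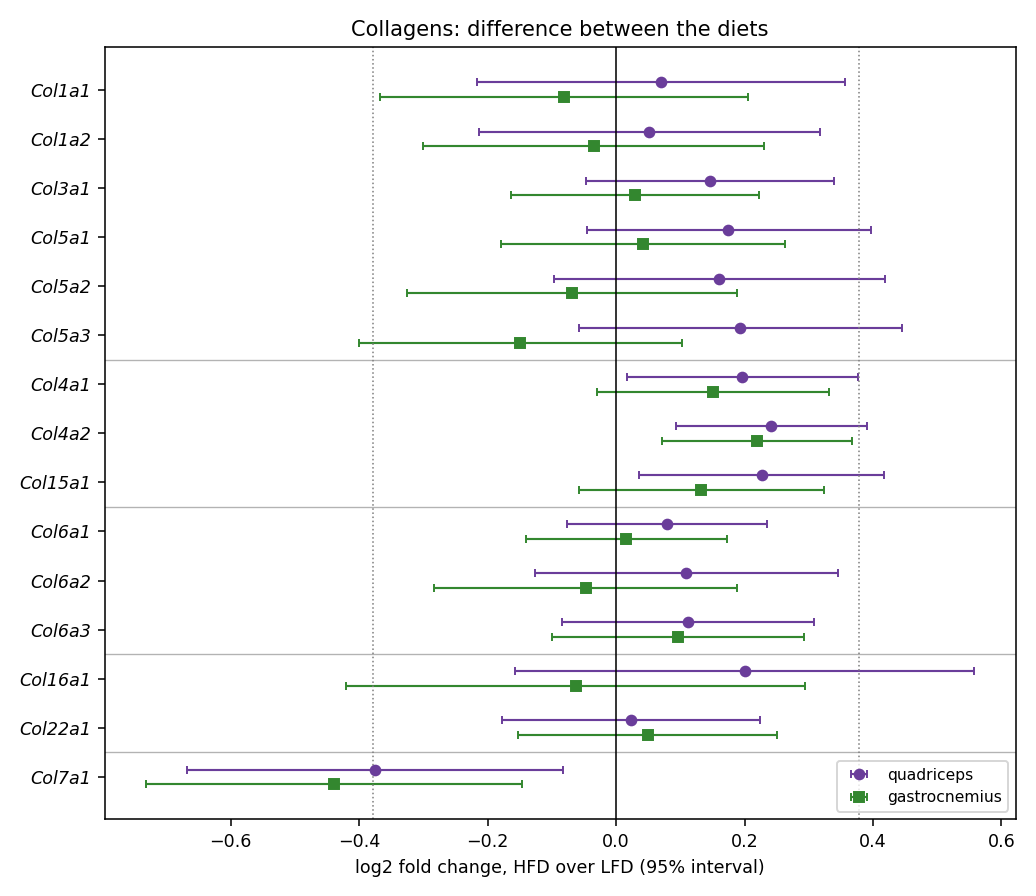
Log2 fold change of HFD over LFD for the 15 tested collagens in the quadriceps (purple circles) and the gastrocnemius (green squares), 10 mice in each group, with 95% intervals, dotted lines at 1.3-fold and grey lines between the classes. In the quadriceps 14 of 15 points lie above 0, Col7a1 lies below 0 in both muscles, and none passed the test.

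Variation between mice of one group was compared between chains, since the chains of one trimer are made together. In each group Pearson's r and Spearman's rho of log2 intensities were computed over 10 mice for 5 pairs of genes, and for 4 genes between the muscles of a mouse in each diet, which gave 28 relations tested by two-sided permutation. Of the pairs, Col1a1 with Col1a2 passed in all 4 groups under both coefficients. For Col1a1 and Col1a2, r was 0.80 in quadriceps LFD, 0.96 in gastrocnemius LFD, 0.93 in quadriceps HFD and 0.94 in gastrocnemius HFD, with permutation p values of 0.00392, 2e-05, 0.00015 and 7e-05 (n = 10 each). Adjusted over the 28 relations the highest of these permutation p values was 0.011. Spearman's rho lay between 0.87 and 0.93 (highest adjusted permutation p 0.0102), and r between 0.76 and 0.96 without the 2 mice farthest from the median of Col1a1.

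Col6a1 and Col6a2 gave r between 0.70 and 0.93, with all 4 adjusted permutation p values at 0.0448 or under, and rho between 0.66 and 0.94, which passed in 2 of 4 groups. Without the 2 mice farthest from the median of Col6a1, r was 0.43 in gastrocnemius LFD and 0.49 in quadriceps LFD. Leaving out the farthest mice also narrows the range of values, which can lower r by itself. Whether these relations rest on those mice is therefore not settled. Col4a1 and Col4a2 gave r between 0.65 and 0.88 and passed in 3 of 4 groups (1 of 4 by rho). Without 2 mice r of Col4a1 and Col4a2 was 0.25 in gastrocnemius LFD, with the same limit, and 0.84 in quadriceps HFD.

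Chains of different collagens were also related. Col1a1 and Col3a1 gave r between 0.54 and 0.78 and passed in gastrocnemius HFD (adjusted permutation p 0.0234), where r was 0.53 without 2 mice. Col1a1 and Col4a1 gave r between 0.42 and 0.85 and passed in the 2 LFD groups, where r was 0.77 (quadriceps) and 0.48 (gastrocnemius) without 2 mice. By rho Col1a1 and Col4a1 passed in no group. Both values of a pair come from one array, so what an array has in common enters these coefficients, and whether one pair was related more closely than another was not tested.

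Between the quadriceps and the gastrocnemius of a mouse, r of Col1a1, Col3a1, Col4a1 and Col6a1 lay between -0.24 and 0.64. None of these 8 relations passed (adjusted permutation p between 0.0805 and 0.935). No relation between the collagen RNA of both muscles was detected. The highest r was that of Col3a1 in HFD mice, at an unadjusted permutation p of 0.0489. By rho none passed either, and the highest was that of Col4a1 in LFD mice, at 0.72. Its permutation p was 0.0231 unadjusted and 0.0604 adjusted.

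**Figure D5:**
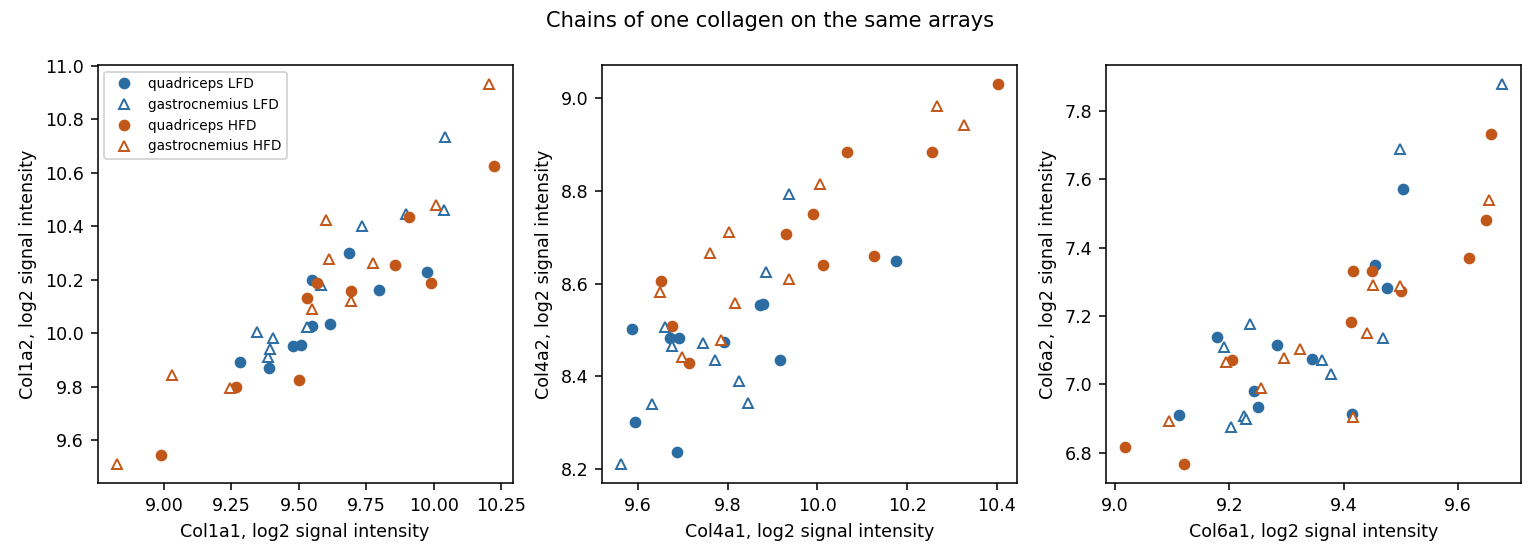
Log2 signal intensity of Col1a2 against Col1a1, Col4a2 against Col4a1 and Col6a2 against Col6a1 on the 40 arrays, where colour gives the diet (blue LFD, orange HFD) and shape the muscle (filled circles quadriceps, open triangles gastrocnemius). Col1a2 is higher on arrays with higher Col1a1 within each of the 4 groups, where r is 0.80 to 0.96.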

How the data were processed

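RNA of both muscles of 20 mice was measured on 40 arrays. As the study's methods state, the authors redefined probe sets by Entrez gene, 1 for each, normalized the arrays by quantiles and computed signal with GC-RMA (version: not given in the sources used here). From their range the deposited intensities are taken as linear. After removal of 64 controls from 16539 probe sets, RefSeq (GRCm38.p6) named 16229 of 16475, the platform annotation 28 more, and 218 had no symbol. Groups and mouse numbers came from the sample titles. The extraction protocol in the labels names the quadriceps for all arrays, and the muscle was taken from the title. The number of arrays limits the precision.

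Log2 intensities of probe sets with a mean over 20 were fitted with limma 3.58.1 in R 4.3.3, tested on simulated data. The muscles were compared within the 20 arrays of each diet, and both diets together, the diets and the interaction within a fit of all 40. For a call, the FDR (Benjamini-Hochberg over 6479 probe sets) had to be under 0.05 and the change more than 1.3-fold, and for the interaction only the FDR counted. Correlations used 100000 permutations (Python 3.11.15, numpy 2.4.6, scipy 1.17.1). Promoters were found for 33 of the 42 collagens.

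Equal numbers mark 1 animal, so the arrays are paired. The deviations of the 2 arrays of a mouse from their group means correlated with a median r of 0.388 in LFD mice and -0.0689 in HFD mice. Alternatives were the mouse as a block, a mean over 50, no filter, repeated quantile normalization, log2(intensity + 16), FDR alone, trended and robust moderation, other sets of arrays in a fit, leaving out each mouse and, added after the data were seen, leaving out mice with S100a8 over 100. Every collagen over the filter is named, with values for those called and the 3 of highest mean in each class, and for up to 4 called genes of each other list. Col5a1, Col5a2, Col5a3, Col9a1, Col24a1, Serpinh1, Lox, Lum and P4hb were added after their values were seen. The members and lists were chosen with earlier results of these data known. The summed level of Schwann cell markers is not reported here.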

Additional observations from a re-analysis of the deposited data

Results flagged for a closer look

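In 72 combinations of collagen and group (the 15 tested genes and Col2a1, Col9a1 and Col24a1 in 4 groups of 10), 2 had 1 array whose distance from the next, as a share of the range, exceeded Dixon's 95% critical value for groups of this size, and chance gives about 1 in 20. Col5a3 was 39.0 in the quadriceps of mouse 147 (LFD), where the next array had 56.1. Col9a1 was 5.4 in the gastrocnemius of mouse 158 (HFD), where the next had 7.1, both near the array medians.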

How the results depend on the processing

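No collagen was called in the diet comparisons or the interaction under any alternative run. In LFD mice none was called, except 2 without the intensity filter (Col9a1 and Col24a1) and 1 by FDR alone (Col3a1). In HFD mice the 1 called became 3 without the filter, 2 with the replicate block (Col3a1 and Col5a2), 2 with all 4 groups in 1 fit and 0 without the mice with S100a8 over 100. Over both diets the 0 called became 2 without the filter and 2 by FDR alone. The replicate block changed no other collagen call, and among the named partner genes it added Pcolce2 in LFD mice and Postn and Ccn2 in each diet. By FDR alone the block also added Col6a3 over both diets (limma adjusted p = 0.0494). Leaving out 1 mouse gave 0 to 1 called in HFD mice (0 without mouse 150) and 0 to 1 over both diets (1, Col3a1, without mouse 141, 144, 148, 149, 157 or 159). The number of relations between genes that passed was 14 of 28 with either normalization, but after repeated quantile normalization Col4a1 with Col4a2 was lost in gastrocnemius LFD (adjusted permutation p 0.0549), leaving 2 of 4 groups, and Col1a1 with Col3a1 was gained there (0.0288). The cause of these shifts was not tested.

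Without the mice with S100a8 over 100 the muscle difference over both diets changed sign for 6 collagens near 0, to a log2 value of 0.13 for Col16a1, 0.11 for Col1a1, 0.005 for Col4a2, 0.006 for Col5a3, 0.024 for Col6a1 and 0.016 for Col6a2. Among those that kept their sign, Col1a2 moved from 0.10 to 0.21 and Col22a1 from -0.10 to -0.22. Neither passed (limma adjusted p = 0.401 and 0.183). When 1 mouse was left out, Col1a1 ranged from -0.067 to 0.032, Col4a2 from -0.04 to 0.003 and Col6a1 from -0.033 to 0.018. P4ha1 and Pcolce2 lay near the fold change threshold and did not pass it after repeated quantile normalization (both -0.37) or with log2(intensity + 16) (-0.34 and -0.30), and P4ha2 did not with the latter (-0.36). Without 1 mouse P4ha1 was lost in 5 of 20 cases, Pcolce2 in 6 and P4ha2 in 1. Kera, Postn and Ccn2 passed no test in the 10 mice without the S100a8 signal (limma adjusted p = 0.225, 0.191 and 0.108, with log2 values of -0.55, 0.61 and 0.78). In HFD mice P4ha1 was lost without mouse 143 or 152 (limma adjusted p = 0.0609 and 0.054), and Dpt fell under the fold threshold without mouse 150 or 151 (-0.37 and -0.38). Signal near background limits low genes, so the 27 collagens outside the filter are not shown to be equal between groups.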
